A study of Mus musculus with 12 samples.

Results

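The collagen genes were followed in dermal papilla (DP) cells of mouse skin. All genes whose symbol has the form Col, a number, a and a number were taken, which gave 43 of the 14986 genes listed on both days. They comprised 11 fibrillar, 9 network-forming, 5 beaded-filament and 9 fibril-associated (FACIT) chains, together with 1 anchoring-fibril chain, 4 transmembrane chains, 2 multiplexins and 2 others. One further chain, Col6a4, was listed at P14 alone, with 2 to 13 reads in the 3 controls and 4 to 26 reads in the 3 mutants, and was left out.

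RNA was sequenced from DP cells of 12 mice, 3 per group, at postnatal days 14 and 16 (P14 and P16). The mutants, dMF1/2, were Cor-cre/+; Fgfr1Flox/Flox; Fgfr2Flox/Flox, and thus lack both Fgf receptors in cells where the Cre is active. The controls carried the same Cre with a wild-type copy of each receptor gene (Cor-cre/+; Fgfr1Flox/+; Fgfr2Flox/+), although the labels call them wild type. The methods also list controls without Cre, and the genotype of each control library is not given per sample, but sorting by YFP requires the Cre. All animals carried a Cre-dependent YFP reporter at ROSA26, by which the cells were sorted. Cre was driven from the Corin locus, which is active postnatally in the DP, so cells were marked by Corin activity and not by a collagen. The question was what the loss of Fgf signaling in the DP changes as the hair follicle moves towards the end of its growth phase, and here how the collagens of these cells varied with genotype, day and library.

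Collagens are built from 3 chains that wind into a triple helix. The helix requires 1 glycine in each run of 3 residues, and the chains differ in what the helices assemble into. Fibrillar collagens form the load-bearing fibrils of the dermis, with types I and III as the bulk and type V as a minor partner. FACITs decorate these fibrils. Type IV chains form the sheet of the basement membrane, type VI chains form beaded filaments around cells, and type VII anchors the basement membrane to the dermis. The DP is a mesenchymal cluster enclosed by the hair bulb and separated from the epithelium by a basement membrane.

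The glycine repeat is visible in the exons. To show what unites the class, the earliest 54-base exon of the longest coding transcript is given for a fibrillar and a network chain, with glycine codons in capitals and the rest in lower case (GENCODE vM21 transcripts, GRCm38.p6).
Col1a1, exon 8: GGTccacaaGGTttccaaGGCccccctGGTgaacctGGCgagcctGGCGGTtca
Col4a1, exon 7: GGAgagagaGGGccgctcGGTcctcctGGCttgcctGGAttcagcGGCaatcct
The Col1a1 exon holds 7 glycine codons among 18 codons. All 21 exons of 54 bases in this transcript have a glycine codon at the first place of each run of 3 codons. Exons of 54 bases made up 48.6% of the 627 internal coding exons of the fibrillar chains, 26.3% of the 414 of the FACITs and 4.23% of the 284 of the network chains. Among 14827 other genes listed on both days they made up 0.403%.

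Collagen transcripts were a large part of the reads on listed genes. All listed genes are protein-coding, and the total of a library here is the sum of their reads. It was 19302358 to 29860750 reads over the 12 libraries, and shares of reads below are of this total. Col1a1, Col1a2 and Col3a1 together took 86.3% to 94.7% of the collagen reads. Per kilobase of transcript, on 1 scaling of the 12 libraries, the mean level was 653965 ± 110931 normalized reads (SD, n = 3) for Col1a1 in P16 controls. Col1a2, the partner of Col1a1 in the type I heterotrimer, stood at 393684 ± 64647, and Col3a1 at 346918 ± 41270. The next chains were far lower on the same per-kilobase scale and group. Col5a1, which joins type I fibrils, stood at 12029 ± 837, Col6a2 at 10094 ± 744, Col6a1 at 9115 ± 768, Col6a3 at 8833 ± 270 and Col5a2 at 7779 ± 363. The basement membrane chain Col4a1 stood at 7264 ± 1538 and Col15a1 at 6588 ± 337. Col6a1 and Col6a3, Col5a2 and Col4a1, and Col4a1 and Col15a1 each differed by less than the larger SD of the pair. At the other end, Col9a1, a cartilage FACIT, had a mean under 10 normalized reads and was not tested, which left 42 members in every comparison.

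The share of collagen reads set 2 libraries apart before any comparison. In bulk samples, fewer cells of a type and less RNA per cell cannot be told apart. In P14 controls it was 20.5% in replicate 1, against 37.4% in replicate 2 and 37.0% in replicate 3. In P14 dMF1/2 it was 23.6% in replicate 1, against 38.6% and 38.4%. The replicate 1 library was thus the lowest of its group in both genotypes, and at P16 no such gap was seen. P16 controls had 37.0%, 35.1% and 30.9%, and P16 dMF1/2 had 33.9%, 37.0% and 29.6%.

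**Figure D1:**
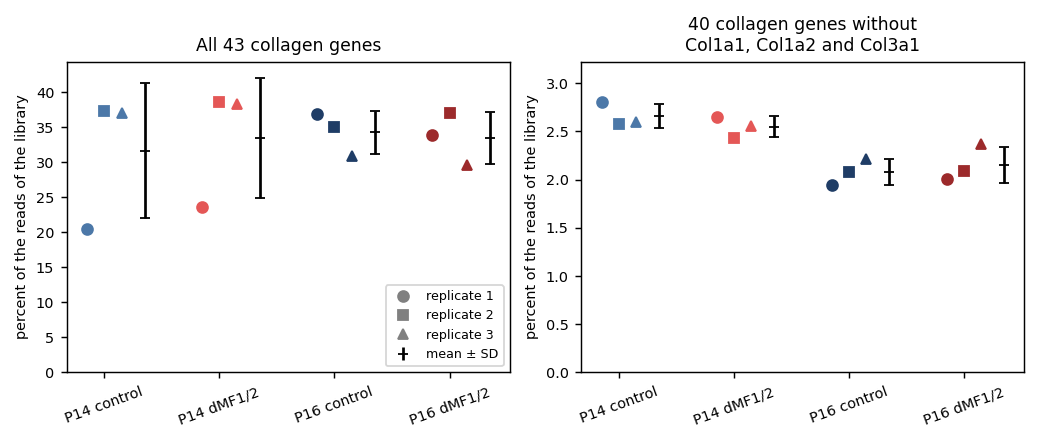
Collagen share, in percent, of the reads on listed protein-coding genes in each library. All 43 members are on the left, and the 40 without Col1a1, Col1a2 and Col3a1 are on the right. Each library has 1 symbol, with the mean ± SD beside each group. The P14 libraries numbered 1 stand at 20.5% and 23.6% on the left, and on the right both P16 groups lie below both P14 groups.

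The unpaired test showed no difference between genotypes in this share, while at P14 the mutant was the higher within every pair of libraries. At P14 it was 33.5% ± 8.57 in dMF1/2 and 31.6% ± 9.63 in controls (SD, n = 3 each), a difference of 1.88 points (exact permutation test, two-sided, p = 0.5; 3 against 3 cannot go below 0.1). Libraries of a day that shared a replicate number deviated together, and in each P14 pair the mutant was the higher, by 3.11, 1.19 and 1.35 points (exact sign test on pairs, p = 0.25, the smallest possible). Without both libraries numbered 1 the shares were 38.5% ± 0.144 and 37.2% ± 0.255 (n = 2 each), a difference of 1.27 points. The libraries left out were those set apart by this same share, so the small SDs follow from leaving them out. The test cannot decide here (exact permutation p = 0.333, the smallest possible for 2 against 2). At P16 the share was 33.5% ± 3.74 in dMF1/2 and 34.3% ± 3.07 in controls (exact permutation p = 0.8), and the pairs differed by -3.09, 1.94 and -1.39 points.

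Outside the 3 dominant genes the shares separated by day. The other 40 members took 2.66% ± 0.125 of the reads in P14 controls and 2.08% ± 0.138 in P16 controls. In dMF1/2 they took 2.55% ± 0.109 at P14 and 2.15% ± 0.188 at P16. The P16 libraries of each genotype were all below the P14 libraries, by 0.581 points in controls and by 0.396 points in dMF1/2 (exact permutation p = 0.1 in each, the smallest possible). These shares are of totals that include the 3 dominant genes, which were low in the P14 libraries numbered 1. A low share of those genes raises that of the other 40, which was highest there, at 2.80% in controls and 2.65% in dMF1/2. Whether the days separate on a scaling not set by these totals was not tested. The full share did not separate by day, with a difference of 2.69 points in controls that turned to -2.87 without P14 control replicate 1, and of -0.0414 points in dMF1/2 that became -4.99 without P14 dMF1/2 replicate 1. These day comparisons use different mice and different sorts, so day and preparation cannot be told apart.

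The low share of the P14 libraries numbered 1 came from some collagens and not from others. The fibrillar chains Col1a1, Col1a2, Col3a1, Col5a1 and Col5a2 were low there, and Col5a3 was not. Col1a1 took 7.06% of the reads in P14 control replicate 1, against 16.7% and 16.4% in replicates 2 and 3. It took 9.15% in P14 dMF1/2 replicate 1, against 17.1% and 16.8%. In normalized reads, Col1a1 in replicate 1 was 30.7% of the mean of the other 2 in controls and 42.0% in dMF1/2, Col1a2 was 31.4% and 40.5%, Col3a1 was 53.4% and 56.1%, and Col5a1 was 54.4% and 60.9%. Of the other type V chains, Col5a2 was 64.8% and 66.3%, and Col5a3 was 104% and 107%. The FACIT Col16a1 was 32.5% and 44.8%. The anchoring-fibril chain Col7a1 was 41.9% and 35.1%.

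Type IV chains split by pair. Col4a5 and Col4a6, neighbours on the X chromosome, were low in replicate 1, at 37.8% and 15.5% of the mean of the other 2 in controls and at 45.9% and 38.0% in dMF1/2. Col4a1 and Col4a2, the ubiquitous type IV chains, were not low, at 102% and 117% in controls and at 118% and 138% in dMF1/2. Col4a3 and Col4a4 were at 135% and 131% in controls and at 188% and 132% in dMF1/2. In type VI, Col6a1 and Col6a2 were at 64.5% and 60.7% in controls and at 58.1% and 55.4% in dMF1/2, while Col6a3 was at 100.5% and 99.6%. The transmembrane chain Col13a1 was high, at 131% and 197%.

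Over the 42 tested members, replicate 1 was below both other libraries for 25 in controls and for 23 in dMF1/2, and in both genotypes at once for 21. Among the 13334 genes tested at P14 the shares were 35.6%, 37.0% and 21.9%. It was above both other libraries for 10 members in controls, 12 in dMF1/2 and 5 in both, against 38.2%, 40.5% and 22.6% of all genes. The median log2 deviation of the members was -0.45 in controls and -0.33 in dMF1/2, against 0.02 over all genes in each. Other measures moved with the same libraries. Marker sums are given in CPM (counts scaled to 1 common library total, collagen reads included). Fewer collagen reads in replicate 1 thus raise the CPM of all other genes there, and the size of this part was not tested. The summed level of the 16 DP markers, all of them detected, was 8967 CPM in P14 control replicate 1, against 5595 and 4633 in the others. In P14 dMF1/2 replicate 1 it was 8989, against 4213 and 5094. The 6 dermal sheath markers went the other way, at 883 against 1351 and 2006, and at 930 against 1649 and 1743. In CPM, lists at low levels were also set apart in replicate 1 of both genotypes, and other scalings were not compared. Keratinocyte sums were 26.0 CPM in controls, against 5.95 and 10.8, and 17.0 in dMF1/2, against 7.88 and 4.79. Schwann sums were 24.1, against 3.99 and 9.87, and 21.7, against 8.65 and 15. Melanocyte sums were 3.52, against 2.69 and 1.70, and 3.87, against 2.01 and 2.24. Immune sums were lower, at 4.77, against 9.16 and 10.3, and at 5.83, against 10.1 and 13.1. Their part in the collagen values was not tested.

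**Figure D2:**
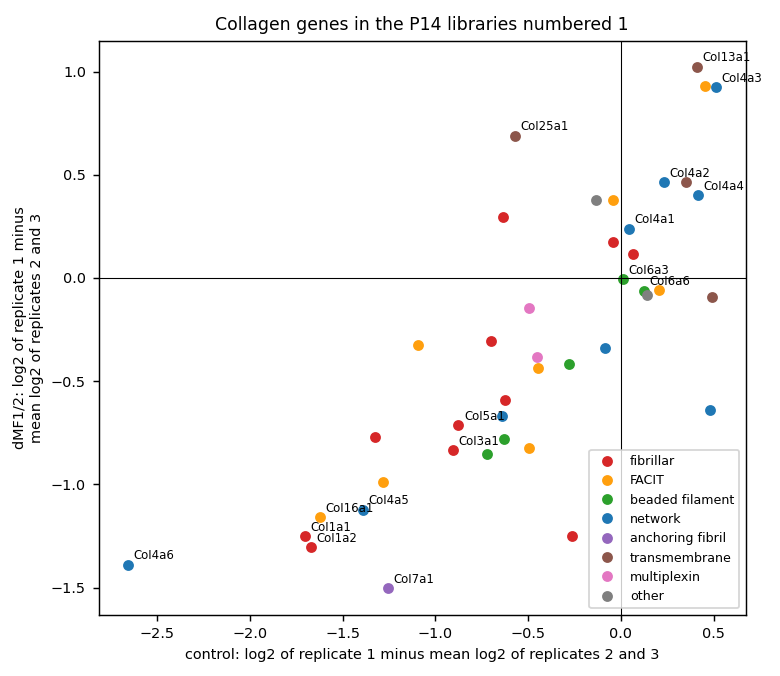
Deviation of the P14 libraries numbered 1 from the mean of replicates 2 and 3 on the log2 scale, in controls (x axis) and dMF1/2 (y axis), with 1 point per tested collagen gene coloured by class. Col1a1, Col1a2, Col16a1, Col4a5, Col4a6 and Col7a1 lie at the lower left, and Col4a1, Col4a2, Col4a3, Col4a4 and Col13a1 lie above 0 on both axes.

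The remaining facts of the libraries are brief. At the gene level, Fgfr1 had 7745 to 9981 normalized reads in P14 controls and 6391 to 7405 in P14 dMF1/2, and 8512 to 12517 against 6226 to 8015 at P16, so the groups did not overlap on either day, but neither difference was called (adjusted p = 0.501 and 0.130 in limma). Fgfr2 had means of 4783 and 4483 at P14 and of 5079 and 5081 at P16, with overlapping ranges. These counts include reads outside the floxed part of each gene, and do not check the deletion. Marker sums for hair follicle keratinocytes (3.21 to 26.0 CPM), melanocytes (1.70 to 3.87), endothelial cells (14.2 to 44.4), Schwann cells (3.99 to 24.6) and immune cells (4.77 to 15) were low throughout. Of these lists, 3 keratinocyte or immune markers listed at P14 (Krt25, Krt27 and Cd52) were not among the genes listed at P16, and 1 (Cd3e) was listed on neither day. Pericyte markers ranged from 329 to 502 CPM in P14 controls, from 390 to 429 in P14 dMF1/2, from 521 to 566 in P16 controls and from 329 to 492 in P16 dMF1/2, so P16 controls were above the other groups, although 0 of the 4 markers were called in any comparison. Across all libraries, dermal fibroblast markers ranged from 2434 to 3399, and genes induced by dissociation from 11079 to 19019 CPM. At P16 the DP markers were at 2129 to 3825 in controls and 4412 to 6934 in dMF1/2, and 5 of 16 were called higher and 1 lower in dMF1/2. The sums of dissociation genes at P16 were 19019, 14272 and 16531 CPM in controls and 14333, 12583 and 14883 in dMF1/2, lower in the mutant at each number with groups that overlapped, and 1 of 9 (Atf3) was called lower. The DP and pericyte sums separated the genotypes at P16 and the dissociation sums moved with them, and their part in the P16 results below was not tested.

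At P14 no collagen gene differed between genotypes at an adjusted p under 0.05, the threshold used throughout (limma on log2 of normalized reads plus 1, Benjamini-Hochberg over all genes). This was 0 of 42 members, against 0.0525% of all genes tested. At an unadjusted p under 0.05 there were 7 members, against 7.32% of all genes. Of these 1 was higher in dMF1/2, against 3.45%, and 6 were lower, against 3.87%. The groups did not overlap in 7 members, against 12.7% of all genes, with 2 members higher (Col8a2 and Col15a1, against 6.33%) and 5 lower (Col6a6, Col13a1, Col25a1, Col11a2 and Col6a3, against 6.32%). edgeR called 0, against 0.0525% of all genes, and DESeq2 called 1, Col6a6, against 1.4% of all genes. The members' median log2 difference was -0.06 with 18 of 42 above 0, against a median of 0.00 and 51.3% above 0 over all genes.

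With the replicate number as a block, Col13a1 was called lower at P14, as 1 of 42 members against 1.68% of all genes. Col13a1 encodes a transmembrane collagen of cell adhesion sites (chromosome 10). Its normalized reads were 5226, 3357 and 4613 in control replicates 1, 2 and 3, and 3158, 1219 and 1979.5 in the dMF1/2 libraries of the same numbers. Every mutant library was below every control library. The log2 difference was -1.14 ± 0.34 (SE), with an adjusted p of 0.445 in limma without the block and of 0.00944 with it. It stayed under the threshold with the block when both libraries numbered 1 were left out (-1.34, adjusted p = 0.0364, with 0.218% of all genes called), an alternative chosen after seeing the data. At P16 the groups overlapped, with 738, 1854 and 2124 in controls and 1914, 1091 and 2036 in dMF1/2 (log2 difference 0.18 ± 0.40, adjusted p = 0.869). The difference between the days was 1.31 ± 0.60 on the log2 scale, with an unadjusted p of 0.0492 in limma, which did not pass adjustment (adjusted p = 0.334 with the block within a day).

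At P16 there were 4 of 42 members called, against 4.32% of all genes tested. Of these 1 was higher in dMF1/2 (against 2.18% of all genes) and 3 were lower (against 2.14%). The blocked fit called 5, with Col15a1 added, against 10.4% of all genes. edgeR called 4, against 4.48% of all genes, and DESeq2 called 7, with Col15a1, Col6a1 and Col6a2 added, against 7.49% of all genes. Members in which the groups did not overlap numbered 10 of 42, against 24.5% of all genes, with 3 higher (against 12.9%) and 7 lower (against 11.6%). The median log2 difference was -0.09 with 16 of 42 members above 0, against a median of 0.00 and 49.2% above 0 over all genes. The called genes were 1 network chain, the anchoring-fibril chain, 1 beaded-filament chain and 1 transmembrane chain, and 0 of the 11 fibrillar and 8 FACIT chains tested (0 by edgeR and DESeq2 as well, and 0 at an unadjusted p under 0.05 in limma).

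Col4a4 was the member called higher. It encodes the alpha 4 chain of type IV, which joins alpha 3 and alpha 5 in specialised basement membranes. The gene lies on chromosome 1, 82448423 to 82586849, minus strand (GRCm38, as for all gene positions given). It had 380, 467 and 413 normalized reads in P16 controls and 648, 657 and 728 in P16 dMF1/2. All mutant libraries were above all controls, by a log2 difference of 0.69 ± 0.11 (adjusted p = 0.0131), or 1.62-fold. At P14 the ranges overlapped, at 411 to 661 in controls and 592 to 821 in dMF1/2 (0.32 ± 0.20, adjusted p = 0.862). The difference between the days was not shown (0.37 ± 0.24, unadjusted p = 0.159 in limma).

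Col4a3 runs the other way, with 71 bases between the starts of both genes. Because the libraries of both neighbours separated by genotype at P16, this interval is given, read on the plus strand of chr1:82586850-82586920 (RefSeq promoter table, GRCm38.p6).
Col4a4 to Col4a3: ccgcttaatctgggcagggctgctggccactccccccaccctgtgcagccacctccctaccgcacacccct
It holds neither the TATA box TATAAA nor the CCAAT box nor the GC box GGGCGG on either strand, and 69.0% of its bases are G or C. Col4a3 had 86.4, 152 and 152 normalized reads in P16 controls and 162, 158 and 180 in dMF1/2. The groups did not overlap, but control replicate 1 stood apart, and the log2 difference of 0.40 ± 0.22 was not called (adjusted p = 0.403). The type IV genes form 2 further head-to-head pairs. Col4a1 and Col4a2 overlap by 22 bases at the starts (chromosome 8), and their ratio is given below. Col4a6 and Col4a5 have 1308 bases between the starts (chromosome X).

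Col15a1, a multiplexin at the interface of basement membrane and fibrils, was the 1 member (of 42) above controls in all 3 libraries on both days, against 2.77% of all genes. It had 33331, 36685 and 33716 normalized reads in P16 controls and 44783, 56161 and 69049 in dMF1/2. At P14 it had 32587, 47818 and 44117 in controls and 50823, 50966 and 62103 in dMF1/2. The log2 differences were 0.41 ± 0.21 at P14 (adjusted p = 0.798) and 0.69 ± 0.18 at P16 (adjusted p = 0.0711 in limma, 0.0272 with the block and 0.000384 in DESeq2). The other multiplexin, Col18a1, gave 0.05 ± 0.18 and 0.19 ± 0.12, and neither was called.

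Col7a1, the chain of the anchoring fibrils, was called lower at P16 (chromosome 9, 108953586 to 108984875). It had 4143, 2844 and 3601 normalized reads in controls and 2512, 1797 and 1755 in dMF1/2. The log2 difference was -0.81 ± 0.18 (adjusted p = 0.0440). At P14 it had 1768, 4045 and 4399 in controls and 1176, 3594 and 3100 in dMF1/2, where the mutant was the lower at each number but the groups overlapped through the libraries numbered 1 (-0.42 ± 0.50, adjusted p = 0.966).

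Col6a5, which encodes an alternative chain of type VI, was also called lower (chromosome 9, 105856070 to 105960643, minus strand). It had 189, 205 and 220.0 normalized reads in P16 controls and 121, 136 and 105 in dMF1/2, a log2 difference of -0.76 ± 0.14 (adjusted p = 0.0252). At P14 it had 249, 304 and 299 in controls and 126, 251 and 113 in dMF1/2, a log2 difference of -0.88 ± 0.29 that was not called (adjusted p = 0.529), with groups that overlapped through 1 mutant library.

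Col25a1, a transmembrane collagen known from neurons, was also called lower, at low counts (chromosome 3, 130131501 to 130599877). It had 71.6, 52.9 and 51.7 normalized reads in P16 controls and 29.2, 21.5 and 24.3 in dMF1/2, a log2 difference of -1.20 ± 0.23 (adjusted p = 0.0302). At P14 it had 26.1, 37.5 and 41.0 in controls and 21.0, 20.3 and 7.8 in dMF1/2 (-1.14 ± 0.43, adjusted p = 0.608). It was the 1 member (of 42) below controls in all libraries on both days, against 2.37% of all genes.

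**Figure D3:**
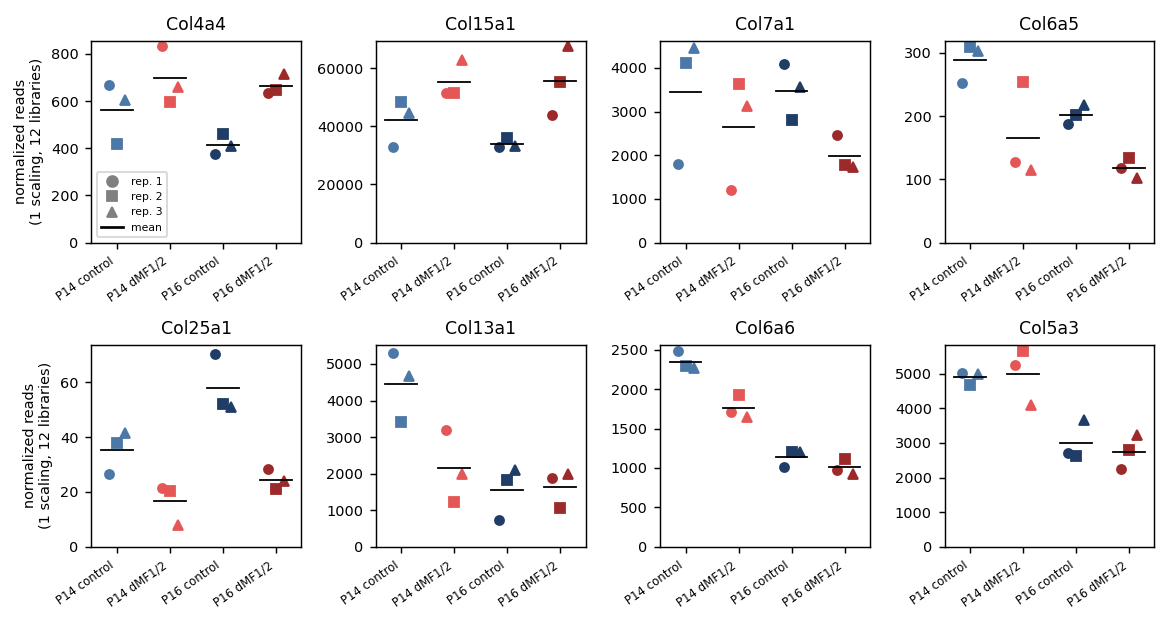
Normalized reads of 8 collagen genes in each of the 12 libraries on 1 joint scaling, with 1 symbol per library and a line at each group mean. Col4a4 is higher and Col7a1, Col6a5 and Col25a1 are lower in dMF1/2 at P16, and Col6a6 and Col5a3 are lower at P16 than at P14 in both genotypes.

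The 250 bases upstream of the start are shown for Col7a1 and Col6a5, called at P16, and for Col5a3, called between the days below, as called genes whose RefSeq entry begins at the annotated start (GRCm38.p6). Capitals mark the TATA box TATAAA, the CCAAT box and the GC box GGGCGG on either strand.
Col7a1, chr9:108953336-108953585, plus strand: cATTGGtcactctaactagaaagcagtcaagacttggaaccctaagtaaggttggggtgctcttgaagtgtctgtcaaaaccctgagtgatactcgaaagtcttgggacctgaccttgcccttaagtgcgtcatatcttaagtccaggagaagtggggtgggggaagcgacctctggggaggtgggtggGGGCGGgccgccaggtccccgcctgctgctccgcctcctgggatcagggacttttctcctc
Col6a5, chr9:105960644-105960893, minus strand: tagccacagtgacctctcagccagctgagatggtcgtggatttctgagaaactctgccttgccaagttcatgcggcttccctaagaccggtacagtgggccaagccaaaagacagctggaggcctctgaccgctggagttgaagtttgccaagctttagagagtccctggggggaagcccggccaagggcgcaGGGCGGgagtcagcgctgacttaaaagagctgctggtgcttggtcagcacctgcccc
Col5a3, chr9:20815068-20815317, minus strand: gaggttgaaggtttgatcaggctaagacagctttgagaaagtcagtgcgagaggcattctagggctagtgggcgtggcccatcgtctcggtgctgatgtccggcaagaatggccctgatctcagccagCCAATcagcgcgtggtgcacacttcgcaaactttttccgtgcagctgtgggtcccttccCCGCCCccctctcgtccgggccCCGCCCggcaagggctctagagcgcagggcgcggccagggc
The GC box stands in all 3 and the TATA box in none of them. Of the other members called between genotypes or days, Col4a2, Col6a6 and Col25a1 had the GC box in this window. Col4a4, Col13a1 and Col19a1 did not, and Col13a1 had the TATA box. Of the 43 members, 34 had an entry in the table. The GC box was found in 20 of the 34 (58.8%), against 32.7% of 27025 entries, the CCAAT box in 11 (32.4%, against 34.2%) and the TATA box in 5 (14.7%, against 12.9%). A match describes the letters of the window and is not a site.

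By class, the fibrillar chains at P16 lay between -0.72 and 0.24 on the log2 scale, with a median of -0.12 and 10 of 11 below 0, against a median of 0.00 over all genes. At P14 they lay between -0.88 and 0.47, with a median of 0.09. Of the 3 dominant genes, Col1a1 gave 0.17 at P14 and -0.11 at P16, Col1a2 0.24 and -0.12, and Col3a1 0.06 and -0.07. Their SEs in limma were 0.61 to 1.68, taken from a fitted trend of variance with level at the top of the range, and DESeq2 gave SEs of 0.15 to 0.44. No call was made for any of the 3 in limma, edgeR or DESeq2.

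The beaded-filament chains were below 0 for 5 of 5 at P14 (median -0.16) and 4 of 5 at P16 (median -0.42). Col6a1 had 41441, 35299 and 37023 normalized reads in P16 controls and 27020, 31094 and 25850 in dMF1/2, and Col6a2 gave 43269, 37419 and 40644 against 28523, 34370 and 28101. In both genes all mutants were below all controls, by -0.44 ± 0.13 and -0.42 ± 0.13, which limma did not call (adjusted p = 0.108 and 0.134) and DESeq2 did (0.00756 and 0.0170). Col6a3, which completes the type VI trimer, did not follow, at 87483 to 93081 in controls and 89732 to 108820 in dMF1/2 (0.09 ± 0.17, adjusted p = 0.835).

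The network chains ran from -1.02 (Col10a1) to 0.69 (Col4a4) at P16, with a median of -0.01, and the FACITs from -0.34 to 0.71, with a median of 0.09. At P14 the network median was -0.06 and the FACIT median -0.01. Col10a1, known from hypertrophic cartilage, had 35.8, 69.5 and 44.6 normalized reads in P16 controls and 31.3, 33.6 and 11.6 in dMF1/2 (-1.02 ± 0.43, adjusted p = 0.250). All mutant libraries were below all controls.

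**Figure D4:**
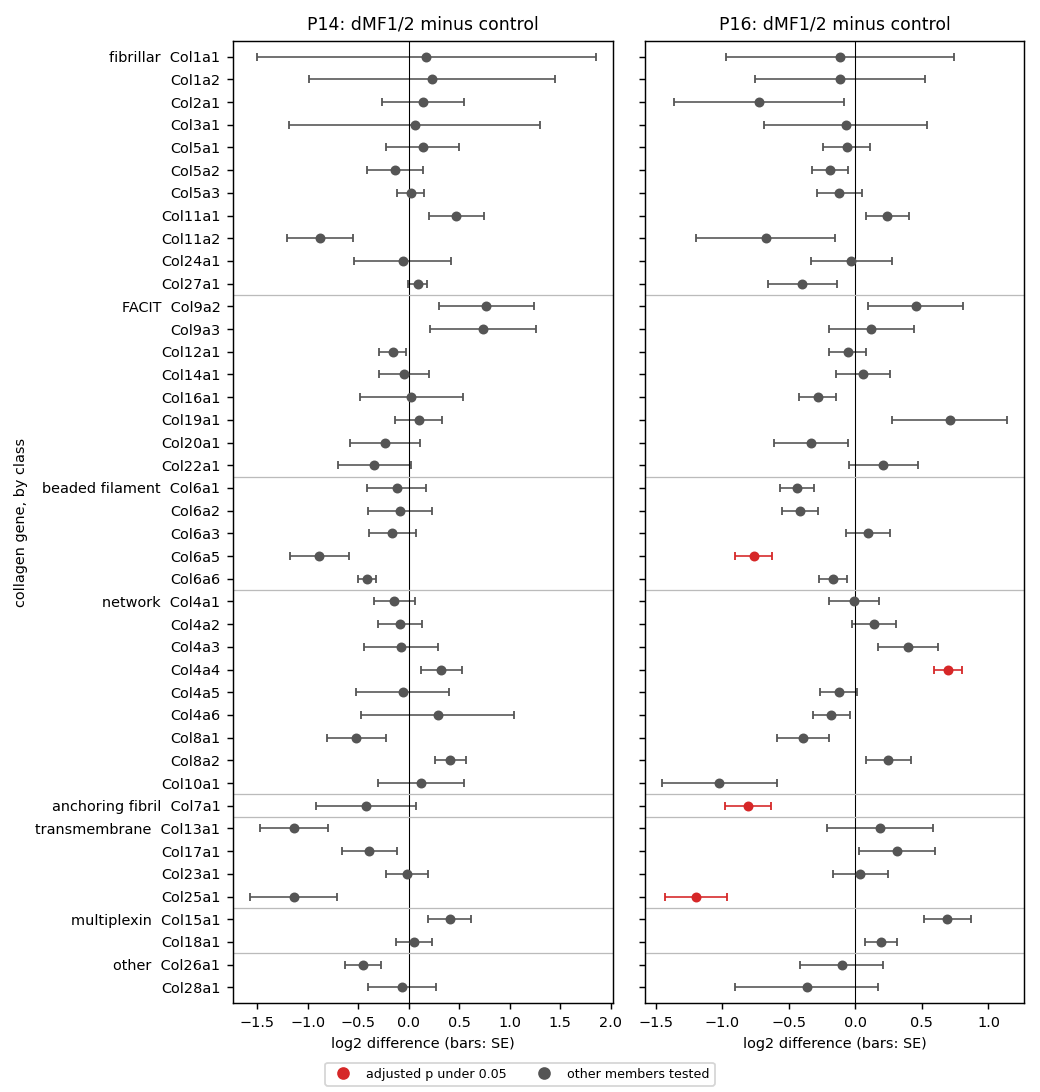
Log2 difference of dMF1/2 and control (point) with its SE (bar) for the 42 tested collagen genes, grouped by class, at P14 (left) and P16 (right), with called genes in red. No gene is red at P14, and Col4a4, Col7a1, Col6a5 and Col25a1 are red at P16.

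To see whether chains moved together, 6 ratios of collagen chains were compared between genotypes on each day, as 12 exact permutation tests (two-sided, 3 against 3). None passed the correction, with adjusted p of 0.3 or more. At P16 the log2 ratio of Col6a3 to Col6a1 was 1.79 ± 0.26 in dMF1/2 and 1.26 ± 0.16 in controls, without overlap (exact permutation p = 0.1, the smallest possible). The ratio of Col4a2 to Col4a1 was -0.47 ± 0.02 and -0.62 ± 0.05, again without overlap (exact permutation p = 0.1). At P14 the ratio of Col5a2 to Col5a1 was -0.91 ± 0.08 in dMF1/2 and -0.63 ± 0.15 in controls, and that of Col1a1 to Col1a2 was 0.84 ± 0.03 and 0.90 ± 0.02, each without overlap (exact p = 0.1). Across all 12 libraries the log2 ratio of Col1a1 to Col1a2 stayed between 0.81 and 0.92, including the libraries numbered 1 at P14 (0.87 in each), in which both genes were low. Differences within a day do not depend on the scaling of libraries here, since each ratio is taken within a library.

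Between P14 and P16 all called collagens were lower at P16. In controls there were 5 of 42 members called, against 14.5% of all genes, with 5 lower (against 8.28%) and 0 higher (against 6.26%). In dMF1/2 there were 2 of 42 called, against 5.8% of all genes, with 2 lower (against 3.97%) and 0 higher (against 1.83%). edgeR called 4 in controls and 2 in dMF1/2, against 15.1% and 5.72% of all genes. DESeq2 called 7 and 3, against 18% and 9.44%. The members' median log2 difference was -0.26 in controls and -0.28 in dMF1/2, against 0.01 over all genes in each. It was above 0 for 15 and 9 of 42 members, against 51.8% and 51.3% of all genes.

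The days did not overlap in 11 of 42 members in controls, against 36% of all genes, with 2 higher at P16 (Col25a1 and Col10a1, against 17.5%) and 9 lower (against 18.4%). In dMF1/2 they did not overlap in 7 of 42, against 27.6%, with 2 higher (Col17a1 and Col22a1, against 13.2%) and 5 lower (Col6a6, Col8a2, Col5a3, Col11a1 and Col9a2, against 14.4%). By class, the beaded-filament medians were -0.34 in controls and -0.39 in dMF1/2, the network medians -0.39 and -0.13, the fibrillar medians -0.25 and -0.16, and the FACIT medians -0.12 and -0.42. These fits used the 12 libraries on 1 scaling with a shared estimate of spread.

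Col6a6, a further alternative chain of type VI, was called in both genotypes. It had 2483, 2291 and 2270 normalized reads in P14 controls and 1015, 1200 and 1200 in P16 controls. In dMF1/2 it had 1716, 1923 and 1651 at P14 and 980.1, 1116 and 926 at P16. The log2 differences were -1.05 ± 0.10 (adjusted p = 0.000267) and -0.81 ± 0.10 (adjusted p = 0.000886), and the days did not overlap in either genotype. Leaving out any 1 library, or both P14 libraries numbered 1, kept both calls. Its genotype difference at P14 was -0.41 ± 0.09 without overlap (adjusted p = 0.278), and was called by DESeq2 alone (adjusted p = 0.0466).

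Col5a3, a minor type V chain, fell from 5033, 4662 and 4989 to 2699, 2631 and 3673 in controls and from 5244, 5658 and 4092 to 2236, 2791 and 3213 in dMF1/2. The log2 differences were -0.72 ± 0.16 (adjusted p = 0.0171) and -0.87 ± 0.16 (adjusted p = 0.0122). The days did not overlap in either genotype. Without P14 control replicate 1 or P16 control replicate 1 the control call was lost (adjusted p = 0.0557 and 0.0694), and without P14 dMF1/2 replicate 2 or P16 dMF1/2 replicate 1 the dMF1/2 call was lost (0.0547 and 0.0607).

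Of the 5 calls in controls, all but that of Col6a6 were lost without both P14 libraries numbered 1, with adjusted p of 0.0556 for Col5a3, 0.0635 for Col13a1, 0.0824 for Col4a2 and 0.113 for Col19a1. Col4a2 lost its call without any 1 of the 6 control libraries (0.0505 to 0.164) and Col19a1 without any except P16 replicate 2 (0.0863 to 0.168). Col13a1 lost its call without P14 replicate 1 (0.0911), P14 replicate 3 (0.0547) or P16 replicate 1 (0.0898). Col13a1 had 5292, 3405 and 4673 normalized reads in P14 controls and 727, 1823 and 2098 in P16 controls, a log2 difference of -1.64 ± 0.42 (adjusted p = 0.0273). In dMF1/2 it had 3203, 1231 and 1999 at P14 and 1872, 1073 and 1998 at P16, where the days overlapped (-0.32 ± 0.42, adjusted p = 0.707). Col4a2 had 53529, 41202 and 50457 in P14 controls and 26128, 30315 and 37046 in P16 controls (-0.64 ± 0.19, adjusted p = 0.0463). Its partner Col4a1 gave -0.42 ± 0.19 (adjusted p = 0.160), with days that overlapped. In dMF1/2, Col4a2 gave -0.42 ± 0.19 (adjusted p = 0.221). Col19a1, a FACIT of basement membrane zones, had 37.7, 34.8 and 43.5 in P14 controls and 11.2, 27.5 and 14 in P16 controls (-1.19 ± 0.36, adjusted p = 0.0485), against -0.58 ± 0.36 in dMF1/2 (adjusted p = 0.374). With all libraries kept, the Col19a1 call was lost in 5 of 10 alternatives (by edgeR, with a pseudocount of 10, without a filter, in the blocked fit and with the 6 control libraries alone, adjusted p = 0.0509 to 0.0871). The Col4a2 call was lost in 2 of 10 (0.0535 without a filter and 0.0907 with the 6 control libraries alone), and the Col13a1 call in 1 of 10 (0.0538 with the 6 control libraries alone).

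No member's day change was shown to differ between genotypes. The interaction of genotype and day called 0 of 42 members in limma, edgeR and DESeq2, against 0% of all genes in limma, and 1 member (Col13a1) had an unadjusted p under 0.05, against 4.83% of all genes (2.83% in its direction). DESeq2 called 0.04% of all genes. Other lists moved with the day in controls. DP marker sums were 4633 to 8967 CPM at P14 and 2129 to 3825 at P16, with 8 of 16 called lower and 0 higher. Pericyte sums were 329 to 502 at P14 and 521 to 566 at P16, and sums of dissociation genes were 11233 to 14200 at P14 and 14272 to 19019 at P16. In dMF1/2 0 of 16 DP markers were called. Their part in the collagen changes was not tested.

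**Figure D5:**
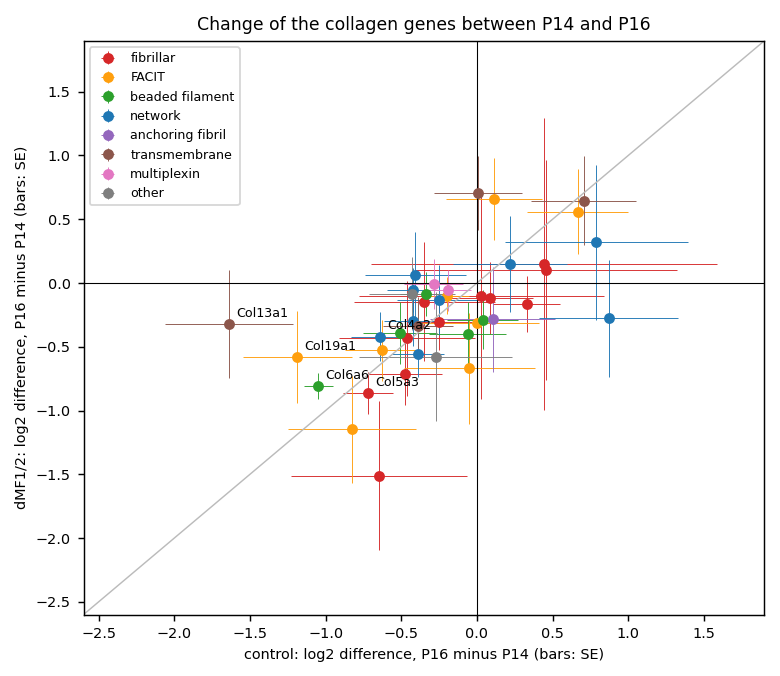
Log2 difference of P16 and P14 in controls (x axis) and dMF1/2 (y axis) with SEs for the 42 tested collagen genes, coloured by class, with genes called in either genotype named and the line of equal change in grey. Col6a6 and Col5a3 lie near the line, and Col13a1 lies furthest from it among the named genes.

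Each of the 4 P16 genotype calls was lost when some single library was left out, and so was each control day call except that of Col6a6. With replicate 3 of either genotype left out, 0 of 42 members were called at P16, and each of the 4 kept its direction. The share of all genes called also went down, from 4.32% to 1.37% on leaving out control replicate 3 and to 1.11% on leaving out dMF1/2 replicate 3. The P16 count was 2 with dMF1/2 replicate 2 left out, against 2.27% of all genes. Leaving out replicate 3 of the controls or of dMF1/2, in that order, gave adjusted p in limma of 0.0574 and 0.0621 for Col4a4, 0.140 and 0.151 for Col7a1, 0.0962 and 0.0888 for Col6a5, and 0.0806 and 0.105 for Col25a1. Col4a4 kept its call without any other library. Omitting control replicate 1 or dMF1/2 replicate 2 also ended the calls for Col7a1 (0.0990 and 0.122) and Col25a1 (0.0939 and 0.0858), and Col6a5 lost its call on omitting control replicate 2 (0.0503) or dMF1/2 replicate 1 (0.0667). Without both P14 libraries numbered 1, 2 members were called between the days in controls (Col6a6 and Col16a1), against 7.09% of all genes in that fit, and both were lower at P16 (against 4.28%). In dMF1/2 there were 6 (Col6a6, Col5a3, Col6a1, Col6a2, Col7a1 and Col16a1), against 6.1% of all genes, and all 6 were lower (against 3.68%).

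Genes that make, process, bind or break down collagen were taken as 57 further genes, 52 of which were tested. Between genotypes limma called 0 on either day, against 0.0525% of all genes at P14 and 4.32% at P16. At an unadjusted p under 0.05 there were 3 of 52 at P14 and 6 of 52 at P16, against 7.32% and 19% of all genes. DESeq2 called 1 at P14 (Lox) and 1 at P16 (Mmp14), against 1.4% and 7.49% of all genes, and edgeR called 0. With the block the calls were 1 at P14 (Lox; 0 without both libraries numbered 1) and 2 at P16 (Adamts3 and Tll1), against 1.68% and 10.4% of all genes. Lox, the lysyl oxidase that starts crosslinking, had 21137 ± 1381 normalized reads in P14 dMF1/2 and 34963 ± 3324 in P14 controls (log2 difference -0.72 ± 0.14, adjusted p = 0.248). At P16 the means were 22746 ± 1919 and 22726 ± 3763.

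Between the days, 5 of 52 were called lower in controls and 0 higher, against 8.28% and 6.26% of all genes. Lox fell from 35431 ± 3359 to 22394 ± 3677 (-0.67 ± 0.14, adjusted p = 0.0125), and Loxl3, a second lysyl oxidase, gave -0.65 ± 0.19 (0.0375). Plod2, the lysyl hydroxylase of telopeptides, fell from 5923 ± 1188 to 2040.5 ± 966 (-1.65 ± 0.38, 0.0180). Pcolce, an enhancer of procollagen C-proteinase, gave -0.47 ± 0.11 (0.0224), and Tll1, a proteinase of that family, gave -0.95 ± 0.29 (0.0469). In dMF1/2 1 of 52 was called lower (against 3.97% of all genes) and 0 higher (against 1.83%). This was the prolyl isomerase Ppib, with a mean of 1325 ± 119 at P14 and 881 ± 164 at P16 (-0.60 ± 0.14, adjusted p = 0.0286), while Lox gave 0.06 ± 0.14 and Plod2 gave -0.15 ± 0.38. The interaction called 0 of 52 in limma, edgeR and DESeq2, against 0%, 0% and 0.04% of all genes, and 3 of 52 had an unadjusted p under 0.05 in limma, against 4.83% of all genes. By DESeq2 the day calls were 8 in controls and 2 in dMF1/2, against 18% and 9.44% of all genes.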

How the data were processed

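Reads were 61-base, single-end, from rRNA-depleted, strand-specific libraries of twice-sorted YFP-positive DP cells. The authors trimmed them with Trimmomatic, aligned them with TopHat2 (version 2) to mm10 (GRCm38.p4), counted them with HTSeq-count and normalized them with DESeq2 (tool versions otherwise not given in the sources used here). Per the file headers, 1 table per day was deposited, whose values are a normalized signal (reads divided by a size factor set within that day). The tables' mean, fold change, SE, statistic and p columns of the authors' comparison were not used. Whole reads were recovered in all 12 libraries (100% of values whole within 0.001).

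Genes averaging 10 normalized reads or more were tested with limma 3.58.1 on log2(value + 1) with a variance trend, within a day over 6 libraries and between days over 12 libraries after median-of-ratios rescaling of the 14986 shared genes. Fold changes on this scale understate those of low genes. P-values were adjusted over all genes tested. edgeR 4.0.16 and DESeq2 1.42.0 were run on the recovered reads. R was 4.3.3. Shares and ratios of chains were compared by exact permutation tests (numpy 2.4.6). The fits were tested on simulated data. Alternatives were another tool, pseudocount, filter or scaling, the block, and each library left out.

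The members and all gene lists were chosen with earlier results of these data known. Named were members called in a comparison, the 10 most abundant, and those above or below controls in all libraries on both days. Pathway genes were to be named where called between genotypes. Other members named, and the pathway genes called between days or by another tool, were chosen after their values were seen. Libraries of 1 day with the same replicate number deviated together (correlations of deviations from group means 0.586, 0.389 and 0.304 at P14, and 0.256, 0.293 and 0.311 at P16), so a fit with the number as a block is given where it changes a call. Replicates are separate mice, and p-values cover the spread between these libraries. Transcript lengths were those of the longest coding transcript in GENCODE vM21.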

Additional observations from a re-analysis of the deposited data

How the results depend on the processing

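Counts of called members changed with the tool, the block and single libraries, and shares of all genes called are given beside them. At P14 the count of 0 became 1 by DESeq2, with the replicate block, with the block and without both libraries numbered 1, and by edgeR with the block (1.4%, 1.68%, 0.218% and 1.84% of all genes, against 0.0525%), and stayed at 0 without any 1 library. At P16 the count of 4 became 7 by DESeq2 (7.49% of all genes, against 4.32%), and 0 to 3 when 1 library was left out (1.11% to 5.08%). For controls between days the count of 5 became 3 without a filter (12.3% of all genes, against 14.5%), 2 without both P14 libraries numbered 1 (7.09%), 2 with the 6 compared libraries only (6.01%), and 1 to 4 without 1 library (5.17% to 14.5%). For dMF1/2 the count of 2 became 4 with the replicate block (7.04% of all genes, against 5.8%), 6 without both P14 libraries numbered 1 (6.1%), and 1 to 3 without 1 library (1.92% to 5.05%). The replicate block moved no other count by over 1.5 times. Between days the numbers did not pair the libraries (correlations -0.130 to -0.0545 in controls and -0.162 to 0.208 in dMF1/2, and not every library correlated best with its own number). The difference in collagen share turned from 1.88 to -0.109 points at P14 and from -0.848 to 0.0763 at P16 without Col1a1, Col1a2 and Col3a1, and from 2.69 to -0.581 between days in controls. Without both P14 libraries numbered 1 it was -2.87 in controls. Without 1 library it ranged from -3.68 to 6.83 at P14, from -2.62 to 1.11 at P16, from -2.87 to 5.56 in controls and from -4.99 to 2.48 in dMF1/2. Uncalled log2 differences that turned sign without 1 library ranged, between genotypes at P14, from -0.39 to 0.59 for Col1a1, -0.32 to 0.67 for Col1a2, -0.24 to 0.34 for Col3a1, -0.24 to 0.043 for Col4a2, -0.15 to 0.38 for Col5a1, -0.34 to 0.064 for Col5a2 and -0.32 to 0.20 for Col6a2. At P16 they ranged from -0.24 to 0.035 for Col1a1, -0.26 to 0.040 for Col1a2, -0.19 to 0.041 for Col3a1, -0.15 to 0.15 for Col4a1 and -0.15 to 0.017 for Col5a1. Between days Col1a1 ranged from -0.13 to 0.73 in controls and from -0.27 to 0.36 in dMF1/2. Col1a1 between days also turned to -0.13 in controls and -0.27 in dMF1/2 without both P14 libraries numbered 1. The cause was not tested. Whether depth limits the members with few reads, such as Col19a1 and Col10a1, was not tested.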
